A study of Mus musculus with 12 samples.

Results

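The 4 fibroblast growth factor (FGF) receptor genes of the mouse, Fgfr1, Fgfr2, Fgfr3 and Fgfr4, were described for contacts of their RNA with ESRP1, an epithelial splicing regulator. Contacts were mapped by eCLIP, which crosslinks proteins to bound RNA by ultraviolet light, immunoprecipitates the protein of interest, and reads the contacted nucleotide from the point where reverse transcription stops. The tissue was epidermis of newborn back skin, taken on postnatal day 1, and in every library, inputs included, Esrp1 was homozygous for a FLAG-tagged allele (Esrp1FLAG/FLAG). The labels name 6 FLAG immunoprecipitates and 6 inputs, as biological replicates 1 to 6. The values were 3 lists of single-nucleotide sites, each called by the authors on a pair of replicates with input: list 1 on replicates 1 and 2, list 2 on replicates 3 and 4, and list 3 on replicates 5 and 6. Sites were taken as members where they lay within the GRCm38 span of a receptor gene on its own strand, which gave 129 of 167480 sites (49, 38 and 42 in lists 1, 2 and 3). No library of untagged animals is among the samples, so every value is a site called against input and not a difference between conditions. The lists carry no read counts, and the depth behind each site is therefore unknown.

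FGF receptors are receptor tyrosine kinases that bind FGF ligands together with heparan sulfate and signal through adaptors to the Ras and MAP kinase cascade. In Fgfr1, Fgfr2 and Fgfr3, a pair of mutually exclusive exons, IIIb and IIIc, encodes part of the ligand-binding immunoglobulin domain. Epithelia mostly use exon IIIb of Fgfr2, whose product binds the mesenchymal ligands FGF7 and FGF10, mesenchyme uses exon IIIc, and ESRP proteins are known to promote exon IIIb. Fgfr4 has no such exon pair. The annotation used gives the start and end of each gene, so whether a region lies in an exon, an intron or an untranslated region, and how it lies to exons IIIb and IIIc, was not analysed here. RNA sequence under the sites was not analysed here either.

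Sites of neighbouring position were joined into regions when at most 10 nt apart on a strand, over all 3 lists, and a region with sites of each list is called found in all 3 lists. Marker genes of skin cell types were counted too. Of 11 keratinocyte marker genes, 9 held sites, with 180, 125 and 180 sites in lists 1, 2 and 3. The abundant keratin genes Krt14 and Krt1 held none. Dermal fibroblast markers, of the cell type in which the IIIc forms are known, summed to 2, 4 and 1 sites over 10 genes, with Col1a1, Dcn, Lum, Pdgfra and Pdgfrb at 0. Endothelial markers summed to 0 sites over 6 genes, immune cell markers to 7, 5 and 5 over 7 genes, all of them in Csf1r, and melanocyte markers to 10, 9 and 6 over 8 genes, of which Mitf held 6, 7 and 6. These are counts of ESRP1 sites and not levels of RNA, and 7455 of all 21900 protein-coding genes held any site. Expression was not measured, so a gene without sites cannot be told apart from a gene whose RNA was scarce. A site also requires ESRP1, an epithelial regulator, in the same cell. Low counts for markers of other cell types therefore cannot check the purity of the tissue, which was not tested.

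ESRP1 sites were present in the RNA of Fgfr1, Fgfr2 and Fgfr3, and none was found in Fgfr4. Fgfr2 held 23, 14 and 19 sites in lists 1, 2 and 3, a mean of 18.7 ± 4.51 (SD, n = 3 lists). Fgfr3 held 18, 17 and 18 sites, a mean of 17.7 ± 0.577. Fgfr1 held 8, 7 and 5 sites, a mean of 6.67 ± 1.53. Fgfr2 and Fgfr3 overlapped in their counts, Fgfr1 lay below both in every list, and Fgfr4, at 0 in each, lay below Fgfr1. No site lay on the opposite strand of any receptor gene. Among 21900 protein-coding genes, 180 had more sites in total than Fgfr2, 208 more than Fgfr3 and 1617 more than Fgfr1, while 7455 genes had any site.

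**Figure D1:**
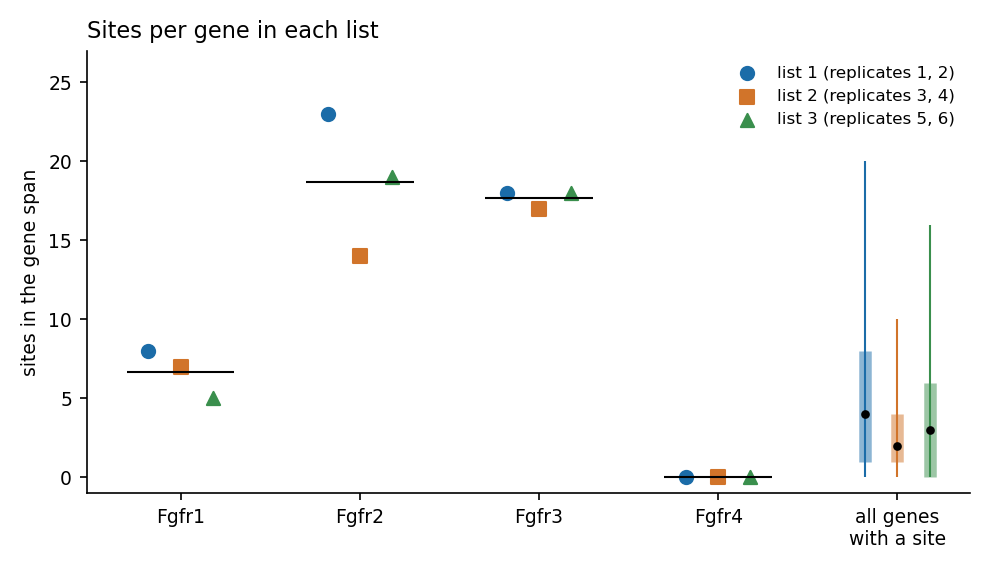
Sites in the span of each FGF receptor gene (y axis, number of sites) in lists 1, 2 and 3, with a line at the mean, beside the spread over 7455 protein-coding genes with a site in any list (dot, median; bar, quartiles; line, 5th to 95th percentile). Fgfr2 with 14 to 23 sites and Fgfr3 with 17 or 18 lie far above the medians of 4, 2 and 3 sites, Fgfr1 lies at 5 to 8, and Fgfr4 at 0.

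The lists differ in size, from 40014 sites in list 2 to 73602 in list 1. Per 10000 sites of a list, Fgfr2 had 3.12, 3.50 and 3.53 in lists 1, 2 and 3, whereas Fgfr3 had 2.45, 4.25 and 3.34. The lower count of Fgfr2 in list 2 was thus not a lower share of that list. Fgfr1 had 1.09, 1.75 and 0.928 sites per 10000. Per 10 kb of span the order changed, because Fgfr3 spans 15345 nt and Fgfr2 spans 104358 nt. Fgfr3 had 11.5 ± 0.376 sites per 10 kb (SD, n = 3 lists), Fgfr2 had 1.79 ± 0.432, and Fgfr1, over 56960 nt, had 1.17 ± 0.268. On this scale Fgfr3 lay above both in every list, while Fgfr2 (1.34 to 2.20) and Fgfr1 (0.878 to 1.40) overlapped. Spans include introns, so this is no rate per length of mature RNA.

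Of the 4 receptor genes, 3 had a region found in all 3 lists, beside 16.7% of all protein-coding genes. Fgfr3 had 3 such regions, Fgfr2 had 2 and Fgfr1 had 1. Longer genes and genes with any site more often hold such a region. The share was 29.1% among genes with a span within 1.5 times that of Fgfr2, 23.8% for Fgfr1, 15.3% for Fgfr3 and 15.6% for Fgfr4. It was 48.9% among genes with a site in any list, a set that 3 of the receptors belong to, and 28.8% among 52 other receptor tyrosine kinase genes. Genes with at least 1 site made up 29.4% of protein-coding genes in list 1, 26.8% in list 2 and 23.9% in list 3, and the same 3 receptors had sites in each. With 4 genes chosen for their family, these shares are a description and were not tested.

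**Figure D2:**
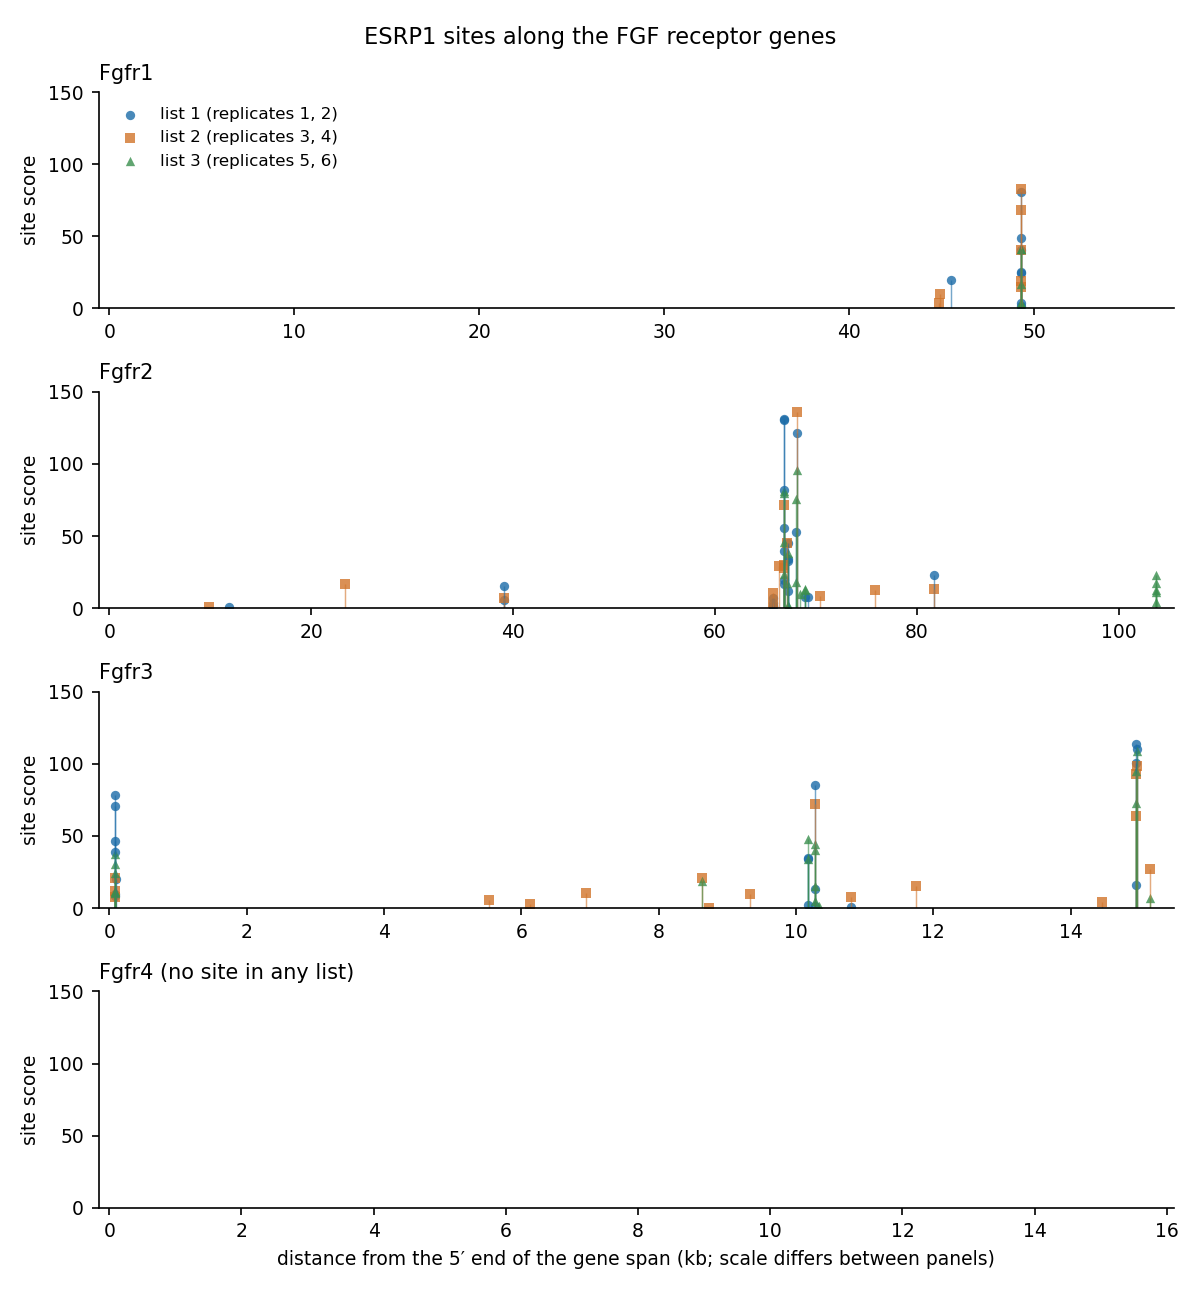
Sites along the span of each FGF receptor gene from its 5′ end (x axis, kb, on a scale of its own in each panel) against the authors' score of the site (y axis), for lists 1, 2 and 3. Fgfr2 sites gather in the interior, between 65690 and 70403 nt, Fgfr3 sites gather at both ends and in the interior, Fgfr1 sites lie between 44872 and 49270 nt, and Fgfr4 has none.

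In Fgfr2 (chromosome 7, 130162451 to 130266808, minus strand), most ESRP1 contacts lay in a single interior stretch. The stretch ran from 130201118 down to 130196405, 65690 to 70403 nt from the 5′ end of the gene. Its 4714 nt are 4.52% of the span and held 42 of 56 sites (75.0%), with 19, 9 and 14 in lists 1, 2 and 3. Both regions found in all 3 lists lay there, with 4 of the 6 regions found in 2 lists and 8 of the 14 found in 1 list. The 14 sites elsewhere in the gene scored at most 22.7 and stood at most at percentile 68.2 of their list, and 5 of them lay close together at the 3′ end in list 3. The score is the authors' own value on a scale that no label or header explains, and it serves only to order sites within a list. Contacts called strong or strongest are those with high scores, and strength of binding was not measured.

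The densest 5000 nt of Fgfr2 held 82.6%, 64.3% and 73.7% of its sites in lists 1, 2 and 3, a mean of 73.5% ± 9.16 (SD, n = 3 lists). Among 207 protein-coding genes with a span of at least 50000 nt and at least 10 sites in every list, the median was 44.0% (quartiles 34.8% to 55.0%), and 9 genes had a higher share than Fgfr2. Because the window was placed where sites were densest, part of each share comes from that choice, in Fgfr2 as in the other genes.

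The contact of Fgfr2 with the highest score in lists 2 and 3 was the single nucleotide 130198707. It scored 121 in list 1, 136 in list 2 and 95.7 in list 3, above at least 94.2% of all sites in each list. It was a region of 1 nt, as were 5.24% of all regions found in all 3 lists. Ranked by the mean over the lists of the percentile of its highest score, it stood above 93.1% of the 9649 regions found in all 3 lists. A neighbouring contact at 130198760, 53 nt upstream on the transcript, scored 52.6 in list 1 and 76.0 in list 3 and was absent from list 2.

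The other Fgfr2 region found in all 3 lists covered 130199976 to 130199987, 12 nt whose first nucleotide lay 1280 nt upstream of 130198707. It held 7, 3 and 4 sites in lists 1, 2 and 3 and stood above 88.4% of the regions found in all 3 lists. Its first nucleotide in the direction of transcription, 130199987, scored 131, 71.4 and 80.1 and was the strongest of the gene in list 1. Nucleotide 130199978 scored 130.5, 27.7 and 81.2, and 130199982 scored 81.6, 30.1 and 23.5. By percentile among all sites of lists 1, 2 and 3, nucleotide 130199987 stood at 96.9, 93.4 and 91.8, 130199978 at 96.9, 76.0 and 92.0, and 130199982 at 92.4, 78.3 and 59.2. All lists thus shared these nucleotides, and list 1 ranked each of them highest.

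**Figure D3:**
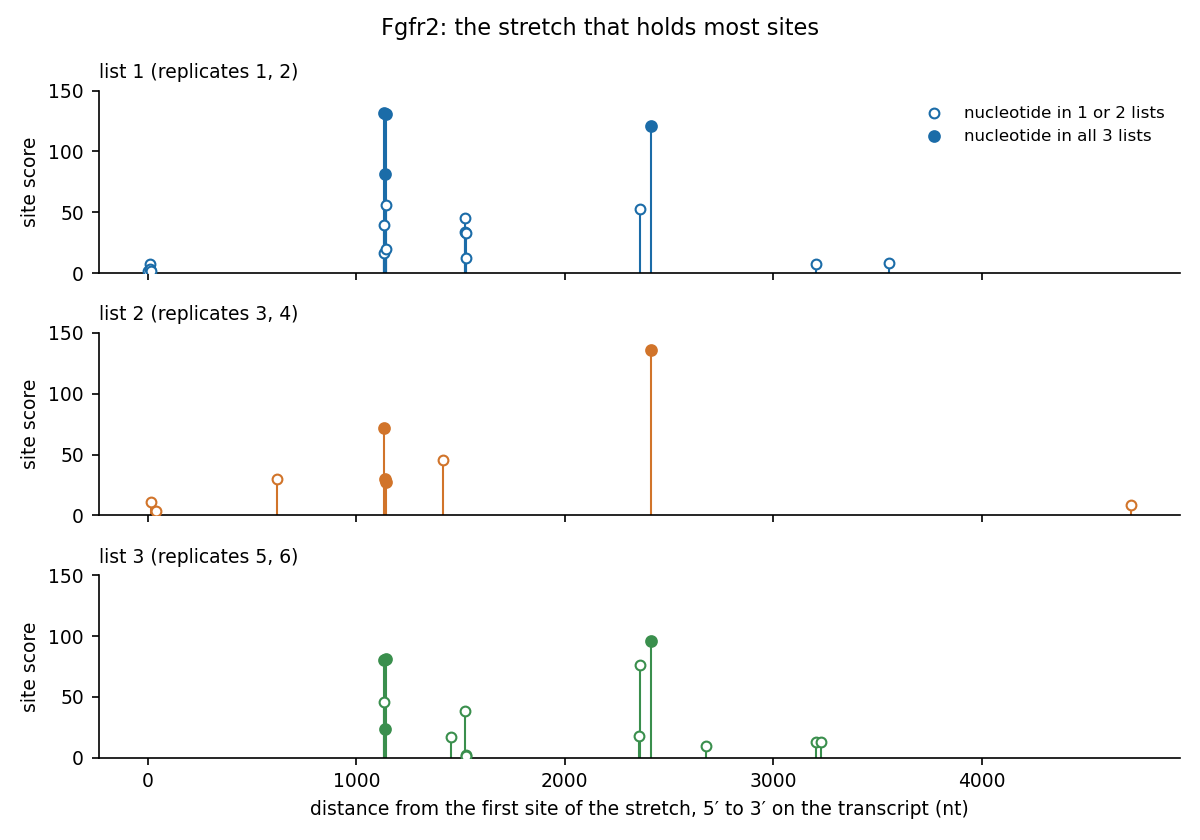
Sites of Fgfr2 in the stretch that held 75.0% of them, as distance from its first site in the direction of transcription (x axis, nt) against site score (y axis), with a panel for each list and filled points for nucleotides found in all 3 lists. The 12-nt region and the single nucleotide 1280 nt downstream of its first nucleotide carry the filled points in every list, and the open points between them are shared by lists 1 and 3 or belong to a single list.

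Between the 2 strongest Fgfr2 regions, lists 1 and 3 shared a region of 5 nt at 130199592 to 130199596. It held 4 and 3 sites in lists 1 and 3, with highest scores of 45.3 and 38.4, and none in list 2. List 2 instead had a lone site of score 45.5 at 130199703, and list 3 a lone site of score 17.5 at 130199662. At the 5′ edge of the stretch, a region at 130201103 to 130201118 held 4 sites in list 1 and 1 in list 2, with highest scores of 7.12 and 10.8. At the 3′ end of the gene, 691 to 720 nt before the end of the span, list 3 alone had 5 sites, with scores of 4.50 to 22.7. Which regions recurred therefore depended on the lists compared. Without list 2, Fgfr2 had 5 regions in both other lists, and without list 3 it also had 5, against 2 without list 1.

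Fgfr3 (chromosome 5, 33721724 to 33737068, plus strand) had 3 regions found in all 3 lists, at its 5′ end, in its interior and at its 3′ end. Its product restrains growth of cartilage and is also present in keratinocytes. The 3′ region was the strongest. It covered 33736669 to 33736683, and its last nucleotide lay 385 nt before the end of the span. Highest scores were 114, 98.2 and 109 in lists 1, 2 and 3, and the region stood above 92.4% of the regions found in all 3 lists. Nucleotide 33736683 scored 109.9, 98.2 and 108.5, its neighbour 33736682 scored 114, 93.1 and 95.3, and 33736675 scored 100.7, 63.6 and 72.5. All scores of these nucleotides were 63.6 or higher and stood at percentile 90.2 or above of their list. Of the 4 nucleotides of the region, 3 were found in all 3 lists. Among 4511 regions found in all 3 lists in genes of at least 4000 nt with a known strand, 13% lay within 500 nt of the 3′ end.

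The 5′ region of Fgfr3 covered 33721804 to 33721816, starting 80 nt inside the 5′ end of the gene. It held 7, 3 and 6 sites, with highest scores of 78.0, 21.0 and 37.7. List 1 peaked at 33721809, while lists 2 and 3 peaked at 33721806, which scored 46.6, 21.0 and 37.7. This region was of middling rank, above 53.8% of the regions found in all 3 lists. Within 100 nt of the 5′ end lay 2.97% of the regions in genes of known strand.

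The interior region of Fgfr3 covered 33731999 to 33732004, 10275 nt from the 5′ end. Only its first nucleotide was found in all 3 lists, with scores of 85.3, 71.9 and 44.4, the highest of the region in each. Lists 1 and 3 also shared a region at 33731900 to 33731902, 97 nt upstream, with highest scores of 34.8 and 47.7 and no site in list 2. Of the 8 Fgfr3 regions found in a single list, 7 came from list 2 and 1 from list 3, and their scores reached at most 15.0. Without list 1, Fgfr3 had 5 regions in both other lists, against 4 without list 2 and 4 without list 3.

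Fgfr1 (chromosome 8, 25518759 to 25575718, plus strand, on which all its sites lay) had a single strong region, at 25568021 to 25568029. The Fgfr1 product is a main FGF receptor of mesenchyme, and the long noncoding RNA genes Gm31288 and Gm16159 overlap other parts of its span. The region held 7, 5 and 5 sites in lists 1, 2 and 3, and 17 of the gene's 20 sites. Its nucleotide 25568025 was the strongest of Fgfr1 in every list, with scores of 80.6, 83.1 and 41.2. Nucleotide 25568029 scored 25.02, 67.9 and 41.1, 25568023 scored 24.4, 19.0 and 16.9, and 25568021 scored 48.7, 40.3 and 3.58. By percentile within the list, 25568025 and 25568029 stood at 77.2 and 77.1 in list 3, and at 92.2 and 70.7 in list 1. The region stood above 75.5% of the regions found in all 3 lists and lay 7689 nt before the end of the span. The 3 remaining sites, of scores 3.72 to 19.4, were 11469 to 12087 nt before the end and each came from a single list.

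**Figure D4:**
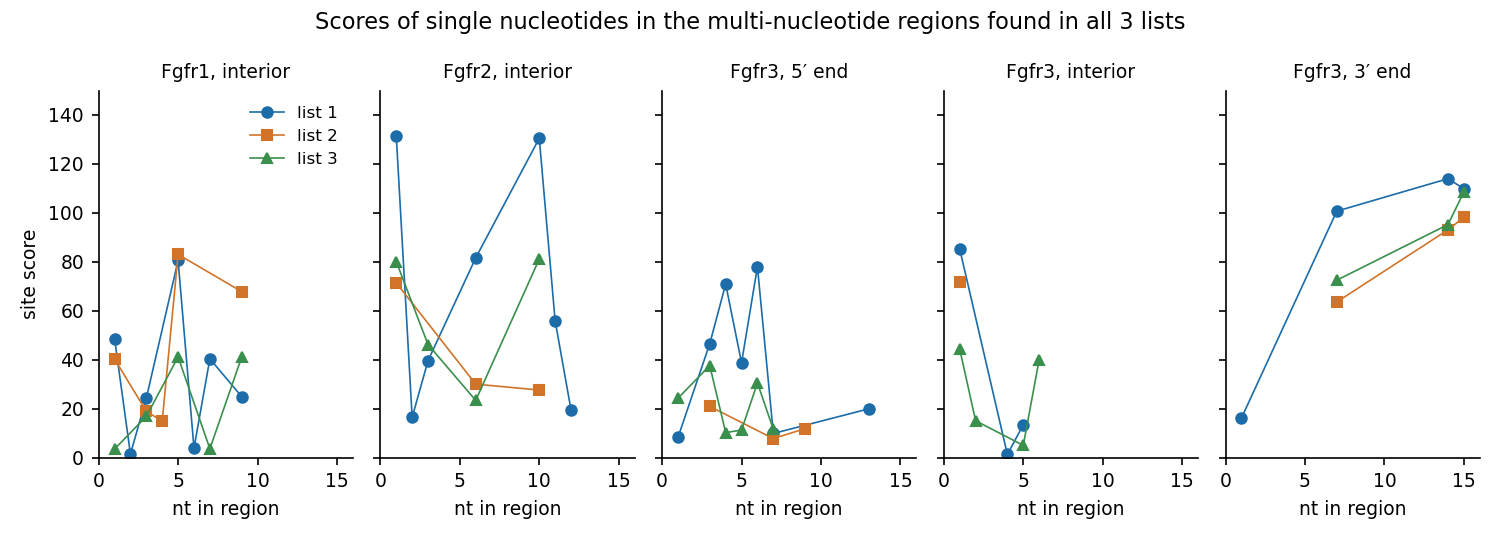
Site score (y axis) of each nucleotide in the 5 regions of more than 1 nt found in all 3 lists, counted from the first nucleotide in the direction of transcription (x axis, nt), for lists 1, 2 and 3; nucleotides without a site in a list have no point. All points shared by the lists lie at 63.6 or higher in the 3′ region of Fgfr3, and all lists peak at the fifth nucleotide in Fgfr1.

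Of the nucleotides with a site in a receptor gene, 14 were found in all 3 lists. They were 4 of 11 nucleotides with a site in Fgfr1 (36.4%), 4 of 41 in Fgfr2 (9.76%) and 6 of 33 in Fgfr3 (18.2%). As a share of the sites of each list, they made up 28.6%, 36.8% and 33.3% of receptor sites in lists 1, 2 and 3, against 19.8%, 36.4% and 27.1% of all sites. The genes differed in this: they took 4 of 8, 4 of 7 and 4 of 5 sites in Fgfr1, whose shared nucleotides all lay in its 9-nt region, and 33.3%, 35.3% and 33.3% of sites in Fgfr3. In Fgfr2 the share was 17.4%, 28.6% and 21.1%, below that of all sites in every list. Scores were compared as percentiles within each list. In Fgfr2, the median percentile was 91.8 at sites of regions found in all 3 lists, against 43.9 in regions of 2 lists and 40.1 in regions of 1 list. In Fgfr3 these medians were 75.4, 65.8 and 23.1. In Fgfr1 the median percentile was 70.7 in the region found in all 3 lists and 40.1 at the 3 lone sites. The strongest nucleotide of each of the 3 genes lay in a region found in all 3 lists, whichever list was used. Regions found in all 3 lists often ranked high in other genes too. The 5′ region of Fgfr3, whose highest scores had a mean percentile of 77.4, stood above only 53.8% of them. The same medians were not computed over all genes, so whether these differences are particular to the receptors was not tested.

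Genes with site counts most like those of Fgfr2 over the 3 lists were Ambra1, with 24, 15 and 20 sites, Jarid2, with 22, 13 and 20, and C2cd2, with 21, 14 and 20. Their Euclidean distances to Fgfr2 on the scale of log2(sites + 1) were 0.131, 0.136 and 0.144. For Fgfr3 they were Tnk2, with 19, 16 and 17 sites, Krt6b, with 19, 16 and 20, and Lamp2, with 20, 16 and 19, at distances of 0.136, 0.182 and 0.182. Regions found in all 3 lists numbered 4, 3 and 3 in Ambra1, Jarid2 and C2cd2 and 2, 4 and 2 in Tnk2, Krt6b and Lamp2. Likeness over 3 lists rests on the number of sites alone.

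Other genes of the FGF pathway were described in lists by role, each read against the 16.7% of protein-coding genes with a region found in all 3 lists. Counts of genes without a site are to be read beside the 7455 of 21900 protein-coding genes that had any site. Of 22 FGF ligand genes, 2 (9.09%) had such a region and 18 had no site. Fgf22, an FGF made by keratinocytes, had 2 regions and 12, 6 and 14 sites in a span of 2745 nt, and its strongest region scored 72.0, 23.3 and 43.1. Fgf12, which encodes an intracellular FGF homologue, had 1 region and 4, 1 and 2 sites over 595461 nt. Neither Fgf7 nor Fgf10, which encode ligands of the IIIb form, had a site.

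Of 11 co-receptor genes, 6 (54.5%) had a region found in all 3 lists. Without Gpc6, whose strand was not in the RefSeq promoter table, 5 had such a region. Among the heparan sulfate carriers, the syndecan gene Sdc4 had 3 regions with 18, 9 and 12 sites, and its strongest region scored 133, 75.8 and 133. Sdc1, the main syndecan gene of epithelia, had 1 region with 13, 7 and 18 sites, and Hspg2, which encodes perlecan, had 1 with 6, 4 and 8. The glypican gene Gpc6 had 5 regions with 16, 8 and 13 sites, on a strand that was taken from the sites themselves and may not be that of the gene. The klotho genes Kl and Klb, co-receptors for endocrine FGFs, had no site.

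Signal transducers of the receptors were often contacted: 16 of 25 genes (64%) had a region found in all 3 lists, and Frs3 alone had no site. Nras, a Ras gene, had 5 regions with 22, 12 and 19 sites. The docking protein gene Gab1 had 3 regions with 21, 15 and 11 sites, and the kinase gene Braf had 3 with 16, 10 and 12. Frs2, the adaptor gene whose product binds FGF receptors directly, had 1 region, with scores of 12.1, 6.05 and 4.21. Of 10 feedback inhibitor genes, 0 had such a region, which in so few genes is near the 16.7% of all protein-coding genes. Of the inhibitor genes, 7 had no site, among them Spry1, Spry2, Spry4 and Dusp6. Most protein-coding genes held none either, since 7455 of 21900 had any site. Spred1 held 2, 3 and 4 sites, Spred2 held 0, 1 and 1, and Spred3 held 1, 2 and 0. Spred1 had a region without list 2, beside 20.4% of protein-coding genes, and Spred1 and Spred3 had 1 each without list 3, beside 20.5%. The median span of the inhibitor genes was 12505 nt, against 60865 nt for the transducers, and the part of span or expression in these counts was not tested. Of 7 transcriptional target genes, 1 (14.3%) had such a region, the cyclin gene Ccnd1 with 11, 1 and 9 sites. The strand of Ccnd1 was taken from its sites, and its region also lies under the span of the protein-coding gene LTO1.

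Genes listed here as Fgfr2 exon regulators were contacted too: 9 of 11 (81.8%) had a region found in all 3 lists. The share was 48.9% among all protein-coding genes with a site in any list, and 10 of these 11 genes had a site. The 9 include Esrp1, the gene of the tagged protein itself, with 3 regions and 21, 11 and 12 sites. Esrp2, also listed, had 0, 1 and 5 sites and no such region. Whether the product of each, Ptbp3 included, acts on these exons was not tested. Hnrnpa1 had 7 regions with 36, 9 and 33 sites, Hnrnpm 6 with 40, 22 and 36, and Ptbp3 4 with 23, 11 and 23. Hnrnph1 had 3 regions with 21, 10 and 16 sites. The counts of Hnrnpa1 are uncertain, because processed copies of it could take or give reads. The receptor genes had a median of 36.5 sites over the 3 lists, with single genes at 56, 53, 20 and 0. The median was 30 in this list, 18 in the transducers, 11 in the co-receptors and 1 in the other receptor tyrosine kinases. It was 0 in the ligands, the feedback inhibitors and the transcriptional targets, as over all protein-coding genes. The keratinocyte markers lay above the receptors, with a median of 52.

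Other receptor tyrosine kinase genes gave a wider comparison, in which 15 of 52 had a region found in all 3 lists and 25 had no site. Over all protein-coding genes, 16.7% had such a region and 7455 of 21900 had any site. Epha6 had 3 regions with 8, 3 and 9 sites over 969479 nt. Erbb3, a receptor gene of the EGF family, had 2 regions with 12, 15 and 13 sites, Ephb6 2 with 18, 5 and 13, and Erbb2 2 with 5, 16 and 11. Fgfr2, with 56 sites, and Fgfr3, with 53, held more sites in total than any of the 52 genes, of which Erbb3, with 40, held most.

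**Figure D5:**
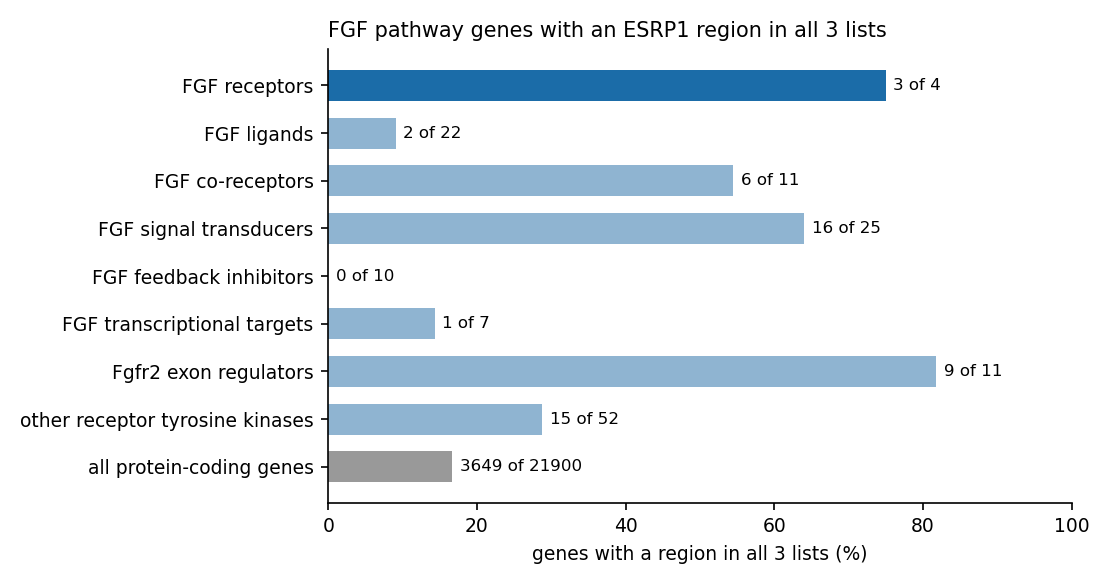
Percentage of genes (x axis) with an ESRP1 region found in all 3 lists, for the FGF receptors, the other lists of the FGF pathway and all protein-coding genes, with the number of genes beside each bar. The receptors (3 of 4), the co-receptors (6 of 11), the signal transducers (16 of 25) and the Fgfr2 exon regulators (9 of 11) lie above the 16.7% of all protein-coding genes. So do the other receptor tyrosine kinases (15 of 52). The feedback inhibitors (0 of 10) are near that share for so few genes.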

How the data were processed

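Sites had been called by the authors with input on pairs of replicates, per the file headers. Each deposited line is 1 nt wide, with a strand and a score, the authors' own value. Builds GRCm38 and mm10 and the tools HISAT2 2.1.0, cutadapt 1.16 and HOMER are listed without roles in the submitters' processing notes. For the caller, duplicate removal and thresholds, the sources used here give no settings. The spread between the pooled replicates cannot be seen, and calling with input can remove sites of abundant RNA.

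From these files, sites were placed in the spans of 21900 protein-coding genes (RefSeq, GRCm38.p6; coordinates 1-based). Gene strand came from the RefSeq promoter table for 17492 genes and from the strand with most sites for 1658, Fgfr1 included. Sites or regions under several protein-coding spans on a strand were left out. The joining and assignment were tested on simulated data. No test between groups was made, since the lists hold a single condition.

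Receptors and gene lists were chosen with earlier results of these data known. Genes named are the receptors, the up to 4 genes of each other list with most regions found in all 3 lists (ties by sites), and the 3 genes nearest to Fgfr2 and to Fgfr3 in site counts; 1 gene that this rule names is not reported here. Fgf7, Fgf10, Frs2, Frs3, Kl, Klb, Esrp1, Esrp2 and the inhibitors were named after their values were seen. Python 3.11.15 and pandas 2.3.3 were used. Alternatives were the distance for joining, the score, the strand and the lists left out.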

Additional observations from a re-analysis of the deposited data

How the results depend on the processing

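Fgfr1, Fgfr2 and Fgfr3 each had a region in the lists required, and Fgfr4 had none, under each of these alternatives: joining within 1 nt or 50 nt, the 50% of sites with the highest scores, either strand, and each list left out. Of 112 values under alternatives, 98 stayed within 1.5 times. This count is no measure of robustness, because some values could not move and others had to. Fgfr4 had no site to gain a region from, and no receptor had sites on the opposite strand. Keeping 50% of sites lowers site counts by design. The share of all protein-coding genes with such a region was 16.7% as reported, 15.1% within 1 nt and 17.3% within 50 nt. It was 11.8% with the highest scores and 17.7% on either strand. Joining within 1 nt split regions, giving 2 in Fgfr1 and 4 in Fgfr2. The 50% of sites with the highest scores left 13 sites in Fgfr1, 31 in Fgfr2 and 32 in Fgfr3. Joining within 50 nt gave 1 feedback inhibitor gene, Spred1, and counting either strand left 0 transcriptional target genes, because another protein-coding span covers the Ccnd1 region. Leaving out each list gave 2 to 5 regions in Fgfr2, 4 to 5 in Fgfr3 and 0 to 2 feedback inhibitor genes. A region then had to be found in 2 lists only. The share of all protein-coding genes with one rose to 17.9% without list 1, 20.4% without list 2 and 20.5% without list 3. Counting only genes with a strand in the promoter table, an alternative chosen after seeing the data, kept 2 receptors, with 0 regions counted for Fgfr1 and 0 transcriptional target genes, since both Fgfr1 and Ccnd1 then drop out. The same setting gave 5 co-receptor, 12 transducer, 6 Fgfr2 exon regulator and 13 other receptor tyrosine kinase genes, beside 16.4% of protein-coding genes. No paired analysis was possible because each list pools replicates and their inputs. Depth is unknown, so a missing site may be one not detectable at that depth.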
